A study of Mus musculus with 2 samples.

Results

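Astrocytes take up glutamate released at synapses, buffer water and ions, and are coupled to each other through gap junctions. After an injury they become reactive, a state in which the filament proteins GFAP and vimentin accumulate in the cell. Single-nucleus RNA sequencing reads transcripts in the nucleus, where unspliced RNA of long genes is well sampled, and sees none of the protein.

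The genes described here are 9 genes of astrocyte identity and reactivity, out of 31054 genes counted in both libraries. They were chosen by name and not by a rule on a measured value, though with earlier results of these data known. Slc1a2 (GLT-1) and Slc1a3 (GLAST) encode the glutamate transporters of astrocytes, Aqp4 the water channel of their endfeet, and Gja1 connexin 43, a gap junction protein. Aldh1l1 encodes an enzyme of folate metabolism used as an astrocyte marker, and S100b a calcium-binding protein. Gfap and Vim encode intermediate filament proteins. Serpina3n encodes a secreted inhibitor of serine proteases that is widely used as a marker of reactive astrocytes. Each was measured in the nuclei labelled Astro in the deposited table, 115 of 8171 labelled nuclei, and in the other labels.

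GFP-positive nuclei came from the ipsilateral cerebral cortex of Atf3-CreER::Sun1-sfGFP mice, in which tamoxifen switches on a nuclear membrane GFP where the Atf3 promoter is active. All mice carried 1 Atf3-CreER and 1 SUN-SfGFP allele, were more than 7 weeks old, and had a mild traumatic brain injury (mTBI), tamoxifen at 4 and 5 days post injury and collection at 7 days post injury. There were 2 libraries, each a pool of 4 animals, 1 male and 1 female by the names of the libraries and the deposited table, although the public sex label of the female library says male. No uninjured animals and no GFP-negative nuclei were among the samples, so no level here can be set against astrocytes at rest, and the spread between libraries holds sex, pool and depth together.

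The female library was the deeper one, with a median of 3710 UMIs per labelled nucleus against 1742 in the male library. Astro nuclei made up 1.32% of the labelled nuclei of the male library (53 of 4003, 95% exact binomial interval 0.993 to 1.73%) and 1.49% of the female (62 of 4168, 1.14 to 1.90%). The median Astro nucleus had 2637 UMIs (male) and 5286 UMIs (female). All but 1 of the 115 fell into a single deposited cluster of 125 nuclei. In the text below, levels are the UMIs of a gene summed over the nuclei of a label in a library and scaled to a total of 1000000 (CPM), and shares are the percent of nuclei with at least 1 UMI. Where a pair of values is given with no library named, the male library comes first. Intervals of shares cover counting error only. An average over the libraries is given as mean ± SD with n = 2.

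The Astro label was set beside other astrocyte genes and the gene of the sort. Of 24 other astrocyte identity genes, all had UMIs in Astro nuclei of both libraries and 19 had their highest level there in both, against 4.48% of all genes with at least 100 UMIs. The label was assigned from the same counts, so this describes the label and does not test it. Atf3 itself had 0 and 10 UMIs in Astro nuclei, 9 of the latter in 1 nucleus. The reporter sequence had 0 and 1 UMI. Barcodes that were not called as nuclei, with 1 to 100 UMIs each, held Atf3 at 39.3 and 73.9 CPM, above the 0 and 21.8 CPM of Astro nuclei.

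RNA of other cell types was present in the Astro nuclei. Neuron markers were detected 10 of 10 and summed to 4078 and 5143 CPM. Markers of oligodendrocyte precursors summed to 365 and 375 CPM, and those of oligodendrocytes to 99.0 and 67.7 CPM. Mural markers summed to 92.8 and 96.0 CPM, VLMC markers to 37.1 and 170 CPM and endothelial markers to 24.8 and 13.1 CPM. Microglia markers were detected 7 and 9 of 10 and summed to 860 and 1159 CPM, against 6589 and 6669 CPM in microglia, with Tmem119 at 0 in both libraries. A free RNA share estimated from the microglia markers came to 38% and 44.9% of Astro UMIs. With this share subtracted, 6 of the 9 genes were highest in Astro in both libraries in place of 7, and the median ratio of Astro to the next label was 4.17 in place of 3.75. The level of a gene in barcodes not called as nuclei is given beside the results it touches.

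The promoter windows of 3 of the 9 genes are shown because they hold a match to a motif of the AP-1 family, to which ATF3 belongs, or of the STAT factors that act in reactive astrocytes. Windows run from 250 bases before to 50 bases after the RefSeq start site on GRCm38.p6, written in the direction of transcription, with the match in capitals. Gja1 (chr10:56377050-56377349, plus strand) holds an AP-1 match, TGANTCA, 19 bases before the start site. Gfap (chr11:102897151-102897450, minus strand) holds a STAT match, TTCNNNGAA, starting 2 bases before it, and Slc1a3 (chr15:8710758-8711057, minus strand) holds one 96 bases before it.
Gja1: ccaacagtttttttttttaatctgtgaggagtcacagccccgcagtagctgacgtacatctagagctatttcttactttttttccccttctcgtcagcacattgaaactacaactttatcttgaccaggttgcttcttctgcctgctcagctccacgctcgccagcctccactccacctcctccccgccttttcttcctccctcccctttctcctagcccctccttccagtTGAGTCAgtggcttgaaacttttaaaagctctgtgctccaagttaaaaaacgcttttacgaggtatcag
Gfap: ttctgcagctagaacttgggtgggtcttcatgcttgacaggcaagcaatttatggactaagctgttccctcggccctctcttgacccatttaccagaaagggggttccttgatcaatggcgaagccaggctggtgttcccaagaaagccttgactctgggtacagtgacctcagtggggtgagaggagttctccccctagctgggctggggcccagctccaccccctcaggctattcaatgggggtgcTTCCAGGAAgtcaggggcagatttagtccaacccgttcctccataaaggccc
Slc1a3: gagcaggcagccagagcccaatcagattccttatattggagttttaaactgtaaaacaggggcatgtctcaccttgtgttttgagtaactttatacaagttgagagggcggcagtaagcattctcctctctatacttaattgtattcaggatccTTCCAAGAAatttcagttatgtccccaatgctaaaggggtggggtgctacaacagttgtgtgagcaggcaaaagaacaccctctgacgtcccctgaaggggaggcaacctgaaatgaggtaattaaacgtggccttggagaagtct
Searched on both strands, AP-1 matches stood in 1 of the 8 windows searched, STAT matches in 2 and the cAMP response element TGACGTCA in 0. The window of Aqp4 was not among these 8. Of all 32851 windows in the table, 7.81% held an AP-1 match, 8.30% a STAT match and 1.79% a cAMP response element match. A match is a run of letters and not a binding site.

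Of the 9 genes, 7 had their highest level in Astro in both libraries among 15 labels. This was the case for 4.48% of the 12447 genes with at least 100 UMIs in the sums, a background that leaves out Serpina3n, which had 20. Because the label was assigned from the same counts and the genes are known astrocyte genes, the count is a description and no test was made. The exceptions were Gja1, which was level with another label, and Serpina3n. The median ratio of the Astro level to that of the next label was 3.75 ± 0.121 (SD of the libraries, n = 2). It fell on different genes, Slc1a3 in the male library (3.66) and Aqp4 in the female (3.84). Its SD therefore does not give the spread of any single gene. The ratio was 25.0 and 5.49 for Gfap, and 19.3 and 24.3 for Slc1a2.

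**Figure D1:**
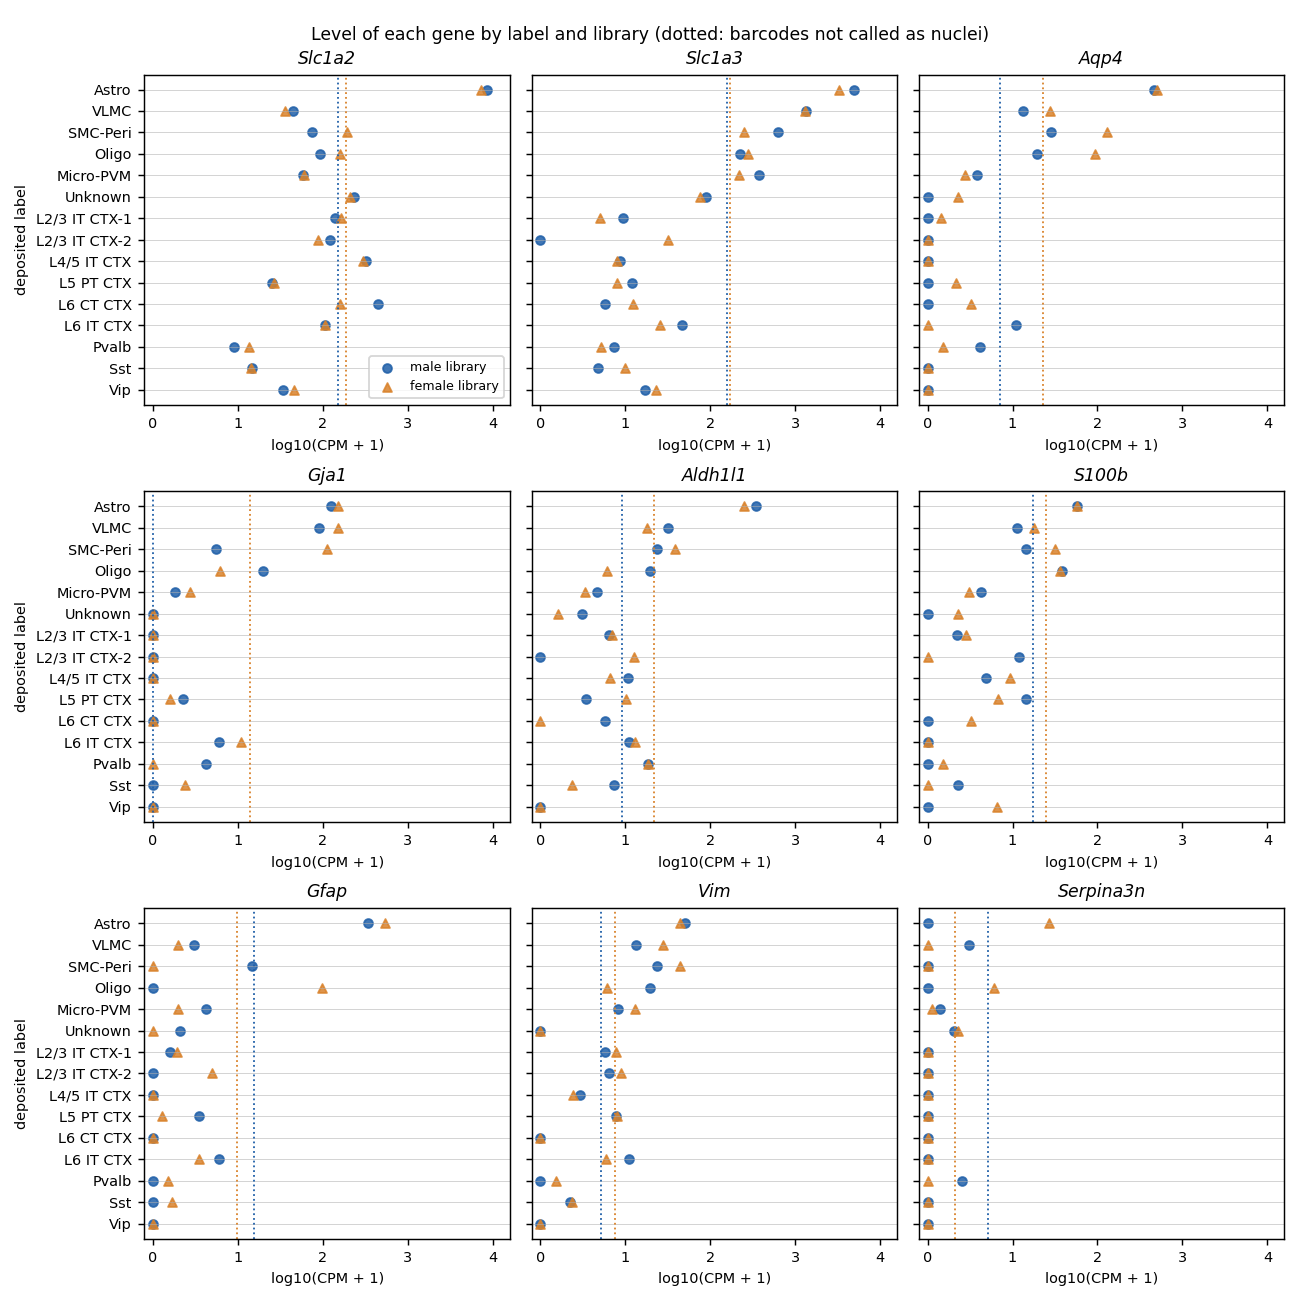
Level of each of the 9 genes in 15 deposited labels, as log10 of CPM plus 1 (x axis), with a circle for the male and a triangle for the female library, and dotted lines for barcodes not called as nuclei. Slc1a2, Slc1a3, Aqp4, Aldh1l1 and Gfap stand furthest right in Astro in both libraries, while Astro and VLMC overlap for Gja1 and Serpina3n is at 0 in Astro nuclei of the male library.

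The glutamate transporters gave the most uniform signal. Slc1a2 (ENSMUSG00000005089, GRCm38 chromosome 2, 102658659 to 102790784, plus strand) stood at 8577 and 7265 CPM in Astro nuclei. It was detected in 53 of 53 nuclei (100%, 93.3 to 100%) and in 61 of 62 (98.4%, 91.3 to 100%). The next label was 19.3 times lower in the male library (L6 CT, 444 CPM) and 24.3 times lower in the female (L4/5 IT, 299 CPM). Both transporters were found in nearly every Astro nucleus even after each nucleus was thinned to 1000 UMIs, with shares of 98.1% and 96.8% for Slc1a2 and of 90.4% and 90.3% for Slc1a3.

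Slc1a3 (ENSMUSG00000005360, chromosome 15, 8634124 to 8710764, minus strand) reached 4901 and 3281 CPM in Astro. It was less restricted to this label than Slc1a2. VLMC, vascular and leptomeningeal cells, followed at 1338 and 1300 CPM, a ratio of 3.66 and 2.52. SMC-Peri nuclei had 630 and 247 CPM, microglia 373 and 218 CPM, and Oligo nuclei 222 and 280 CPM. Barcodes not called as nuclei held 157 and 170 CPM, below VLMC, SMC-Peri, Oligo and microglia in both libraries and above every neuron subclass.

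The water channel and the gap junction gene differed in how far they marked Astro. Aqp4 (ENSMUSG00000024411) had 458 and 498 CPM in Astro nuclei, 478 ± 28.1 CPM on average. It was detected in 64.2% (34 of 53) and 77.4% (48 of 62) of the nuclei. SMC-Peri was next in both, at 27.2 CPM and at 130 CPM, the latter from 21 UMIs in 15 of 41 nuclei.

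Gja1 (ENSMUSG00000050953, chromosome 10, 56377330 to 56402513, plus strand) had 124 and 148 CPM in Astro. VLMC nuclei had 88.3 and 150 CPM, so the ranges of the labels overlapped and the order changed between libraries. The share of Astro nuclei with a Gja1 UMI was 28.3% (15 of 53) and 37.1% (23 of 62). In VLMC it was 21.2% (24 of 113) and 34.2% (55 of 161). After thinning to 1000 UMIs the shares were 11.5% and 4.84% in Astro and 10.9% and 11.2% in VLMC. SMC-Peri nuclei differed between the libraries, with 1 UMI among 92 nuclei (male) against 18 UMIs among 41 nuclei (female).

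The SMC-Peri label, which names smooth muscle cells and pericytes, was not borne out by its markers. The 6 mural markers summed to 36.3 and 49.4 CPM in it, below the 53.4 and 101 CPM of VLMC nuclei. They were also below the 92.8 and 96.0 CPM of Astro nuclei, which came from 2 of the 6. In SMC-Peri the 8 VLMC markers summed to 431 and 290 CPM, and the 8 endothelial markers to 902 and 167 CPM. Its free RNA share was estimated at 28.1% (male) and 81.8% (female). Barcodes not called as nuclei of the female library held Aqp4 at 21.7 CPM and Gja1 at 13.0 CPM, and the part of free RNA in these levels of SMC-Peri was not tested.

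Aldh1l1 (ENSMUSG00000030088, chromosome 6, 90486427 to 90600203, plus strand) had 340 and 249 CPM in Astro nuclei. It followed in VLMC of the male library at 30.8 CPM and in SMC-Peri of the female at 37.1 CPM, 11.0 and 6.71 times lower. It was detected in 43.4% (23 of 53) and 67.7% (42 of 62) of Astro nuclei. Among neurons, Pvalb interneurons held it at 17.3 and 17.6 CPM, with UMIs in 9 of 119 and 24 of 150 nuclei. The 2 values of Pvalb lay close together and above those of every other neuron subclass, while barcodes not called as nuclei held Aldh1l1 at 8.28 and 20.7 CPM.

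S100b (ENSMUSG00000033208, chromosome 10, 76253853 to 76261159, plus strand) had 55.7 and 56.8 CPM in Astro, from 9 and 26 UMIs. Oligo nuclei were next at 37.0 and 35.6 CPM, from 2 and 7 UMIs, so the distance between the labels rests on few molecules. S100b was detected in 15.1% (8 of 53) and 32.3% (20 of 62) of Astro nuclei. In the annotation S100b overlaps Dip2a, Gfap Gm26668, Slc1a2 Gm13872 and Aldh1l1 Gm15756, each on the opposite strand, and Aldh1l1 also overlaps Gm45901 on its own strand.

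Of the filament genes, Gfap set Astro apart and Vim did so only narrowly. Gfap (ENSMUSG00000020932, chromosome 11, 102887336 to 102900912, minus strand) had 340 and 530 CPM in Astro. Its UMIs came from 23 of 53 nuclei (43.4%, 29.8 to 57.7%) with at most 8 in 1 nucleus, and from 38 of 62 nuclei (61.3%, 48.1 to 73.4%) with at most 34. Microglia had 3.21 and 0.995 CPM, with UMIs in 0.473% and 0.299% of nuclei, and excitatory neurons had UMIs in 0.590% and 0.599%. Barcodes not called as nuclei held 14.5 and 8.70 CPM. After thinning, 26.9% (15.6 to 41.0%) and 22.6% (12.9 to 35.0%) of Astro nuclei had a Gfap UMI, so the intervals of the libraries overlapped both before and after thinning.

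Vim (ENSMUSG00000026728, chromosome 2, 13573927 to 13582826, plus strand) had 49.5 and 43.7 CPM in Astro, from 8 and 20 UMIs. SMC-Peri nuclei had 22.7 and 43.3 CPM and VLMC nuclei 12.3 and 26.9 CPM, and in the female library the ratio of Astro to SMC-Peri was 1.01. Vim was detected in 5 of 53 (9.43%, 3.13 to 20.7%) and 8 of 62 (12.9%, 5.74 to 23.9%) Astro nuclei. Gfap and Vim were found together in 1 nucleus of the male and 4 of the female library. None of their 3 filament partners was highest in Astro in both libraries. Nes (nestin) had 24.8 and 10.9 CPM in Astro, and its highest level was in L2/3 IT CTX-1 neurons, at 53.5 and 60.3 CPM. Synm had 0 and 2 UMIs and Des 0 and 1 in Astro.

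Serpina3n (ENSMUSG00000021091, chromosome 12, 104406729 to 104414329, plus strand) was at the limit of detection. It had 0 UMIs in 53 Astro nuclei of the male library, which allows a level of up to 18.6 CPM at 3 counts and a share of up to 6.72% by the exact binomial interval. In the female library it had 12 UMIs (26.2 CPM) in 4 of 62 nuclei (6.45%, 1.79 to 15.7%), 5 of them in 1 nucleus. All 4 nuclei held 3 or more UMIs of microglia markers, as did 55 of the 62, and 1 of the 4 was the Astro nucleus outside the Astro cluster. All 14 other labels had at most 2 UMIs in a library. The 9 other Serpina3 genes, which are close copies, had 1 and 2 UMIs together in Astro, and how the authors' counting split reads among them is not known.

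**Figure D2:**
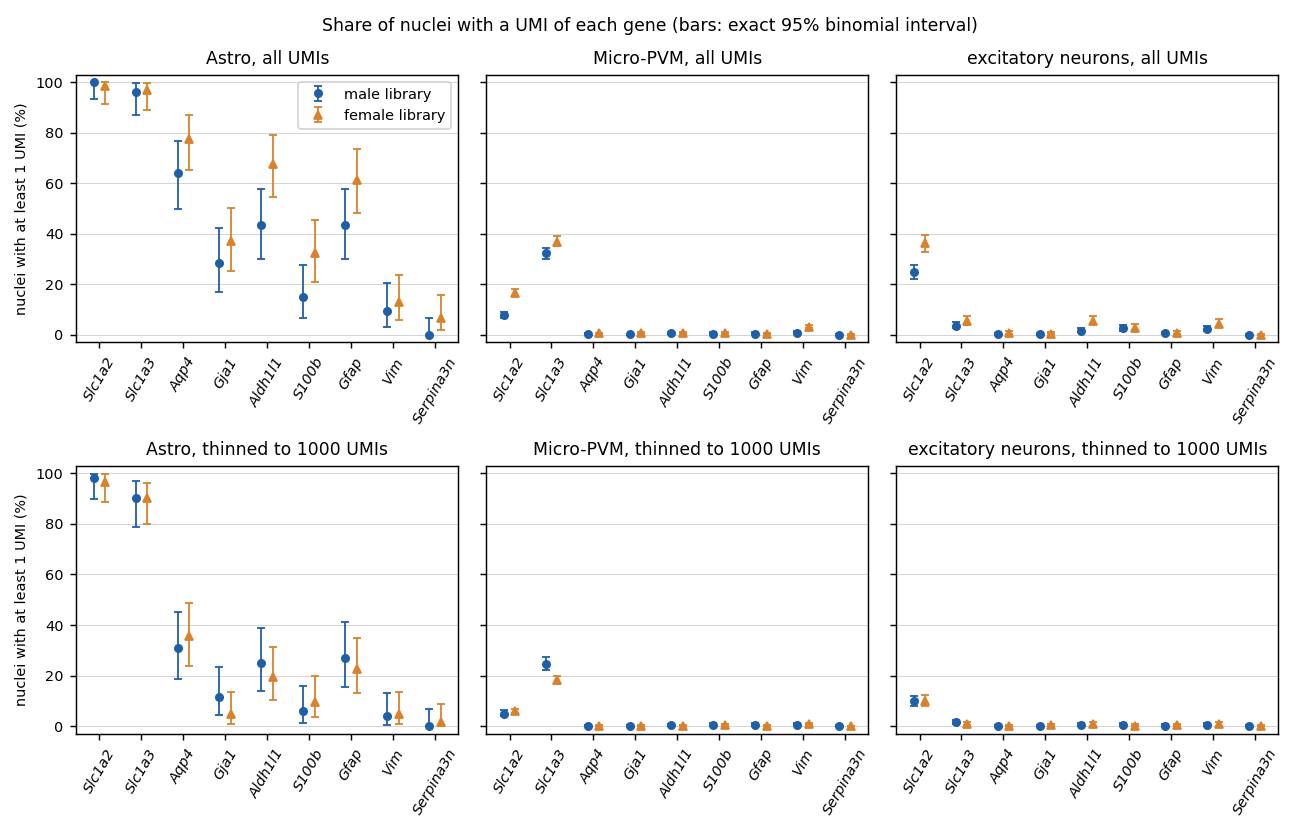
Share of nuclei with at least 1 UMI of each of the 9 genes (y axis, percent), for Astro, microglia (Micro-PVM) and excitatory neurons, with exact 95% binomial intervals, from all UMIs (top) and after thinning to 1000 UMIs (bottom). Slc1a2 and Slc1a3 stay above 90% in Astro in both rows, Gfap goes from 43.4% and 61.3% to 26.9% and 22.6%, and Slc1a3 is the only one of the 9 above 10% in microglia in both rows and libraries.

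Several of the genes were found in the same nucleus, Slc1a2 and Slc1a3 in nearly every one. An Astro nucleus held UMIs of a median of 4 (male) and 5 (female) of the 9 genes, with at most 6 and 8. At least 3 of the genes were found in 86.8% (46 of 53) and 95.2% (59 of 62) of Astro nuclei, and in 0.237% (4 of 1690) and 0.257% (6 of 2338) of microglia. The shares were higher in VLMC, at 4.42% (5 of 113) and 18.6% (30 of 161). In SMC-Peri they were 5.43% (5 of 92) and 26.8% (11 of 41), and in Oligo 7.69% and 4.76%. After thinning, these shares were 65.4% and 64.5% in Astro, and 0.162% (2 of 1237) and 0% (0 of 2322) in microglia. In VLMC they were then 1.82% and 1.24%, in SMC-Peri 1.45% and 2.44%, and in Oligo 5% and 2.44%. Astro nuclei with a Gfap UMI held Aldh1l1 in 56.5% (male) and 78.9% (female), and those without in 33.3% and 50%. Aqp4 was in 78.3% and 78.9% of the nuclei with Gfap and in 53.3% and 75% of those without. Vim was in 4.35% and 10.5% of the nuclei with Gfap against 13.3% and 16.7% of those without, S100b in 8.70% and 31.6% against 20% and 33.3%, and Gja1 in 26.1% and 36.8% against 30% and 37.5%. These shares are descriptions with no test. The nuclei with Gfap were also deeper, at a median of 2714 against 2287 UMIs (male) and 7077 against 4597 UMIs (female), and the part of depth in this was not tested.

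**Figure D3:**
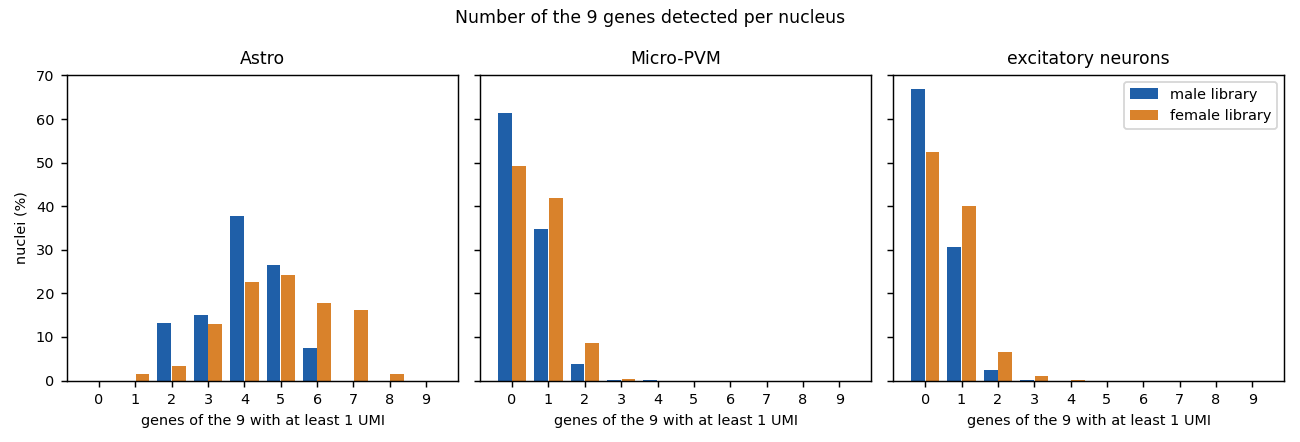
Number of the 9 genes with at least 1 UMI in a nucleus (x axis) against the percent of nuclei (y axis) in Astro, microglia and excitatory neurons, with a bar for each library. Astro nuclei centre on 4 and 5 genes, while 61.4% (male) and 49.3% (female) of microglia and 66.9% and 52.5% of excitatory neurons held none.

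Outside Astro, the same genes were compared between labels in a single edgeR quasi-likelihood fit of the 30 sums of library and label, with Benjamini-Hochberg adjustment over 10643 genes and a threshold of 0.05. Serpina3n was too low to be tested, which left 8 of the 9 genes. Fold changes are on the log2 scale with their standard error (SE). Each side of a comparison holds 2 sums per label, from 2 pools of animals. An adjusted p therefore sets a difference against the spread between the 2 libraries, estimated over all labels, in which sex, pool and depth go together. The labels of a library were not paired in this fit.

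Between neuron subclasses, Slc1a2 was the only one of the 8 genes called in this fit. In L5 PT neurons, which project out of the cortex, it had 23.9 and 25.5 CPM. In L2/3 IT CTX-1 it had 138 and 161 CPM and in L2/3 IT CTX-2 120 and 85.9 CPM, so every L5 PT value lay below every L2/3 IT value. L5 PT differed from L2/3 IT by -2.22 on the log2 scale (SE 0.36, adjusted p = 0.000126, lower in both libraries). Of the 8 genes tested 1 was called, against 8.01% of all genes. S100b had 13.5 and 5.78 CPM in L5 PT neurons and 0 to 10.9 CPM in L2/3 IT, and was not called (adjusted p = 0.139), although it passed when the L2/3 IT sums were added together (log2 fold change 2.27, SE 0.66, adjusted p = 0.0334). Its L5 PT levels lay below the 16.6 and 23.9 CPM of barcodes not called as nuclei.

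Slc1a2 was also lower in inhibitory than in excitatory neurons. With the subclasses added together, excitatory neurons had 130 and 106 CPM, and inhibitory neurons 12.9 and 14.3 CPM. Each of the inhibitory subclasses, with 7.88 and 12.4 CPM in Pvalb, 13.8 and 13.2 CPM in Sst and 32.5 and 44.4 CPM in Vip, was below L2/3, L4/5 and L6 neurons in both libraries. L5 PT neurons were the only excitatory subclass in this range. The log2 fold change of inhibitory against excitatory was -2.68 (SE 0.26, adjusted p = 4.31e-09). Of the 8 genes 1 was called, against 17.4% of all genes. With the subclasses added together, Vim (5.22 and 5.88 CPM in excitatory against 0.644 and 0.844 CPM in inhibitory neurons, adjusted p = 0.0269) and S100b (6.36 and 4.14 against 0.644 and 0.563 CPM, adjusted p = 0.0157) were called as lower in inhibitory neurons as well. Barcodes not called as nuclei held Vim at 4.14 and 6.52 CPM and S100b at 16.6 and 23.9 CPM.

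The Slc1a2 level in neurons was set beside that of free RNA, which was estimated at only a part of the UMIs of a label. The estimate ran from 14.2% (L4/5 IT, male) to 70.2% (L2/3 IT CTX-2, female) in excitatory subclasses. In inhibitory subclasses it ran from 18.3% (male) to 45.6% (female), both in Vip. The level in free RNA alone, in barcodes not called as nuclei, was 149 and 185 CPM. L4/5 IT neurons (323 and 299 CPM) were above this in both libraries, L6 CT neurons (444 and 157 CPM) only in the male, and all other subclasses were below it in both. After thinning, 9.76% and 10.0% of excitatory nuclei had a Slc1a2 UMI, against 2.17% and 0.940% of inhibitory nuclei and 4.93% and 5.90% of microglia. When free RNA was subtracted, the count called between inhibitory and excitatory neurons was 0. Slc1a2 then had a larger log2 fold change, -6.42, and an adjusted p of 0.9999. The estimated share was 22.5% and 28.2% in Pvalb and 22.2% and 32.4% in Sst neurons. At the free RNA level this exceeds their whole Slc1a2 level, so the subtraction could empty these sums. The missing call therefore does not show that the difference was gone. Between L5 PT and L2/3 IT neurons Slc1a2 was still called after the subtraction. In L5 PT neurons, too, the estimated share (25.3% and 33.6%) at that free RNA level exceeds the observed Slc1a2 level. The subtraction could empty the L5 PT sums, so the remaining call is no separate check.

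**Figure D4:**
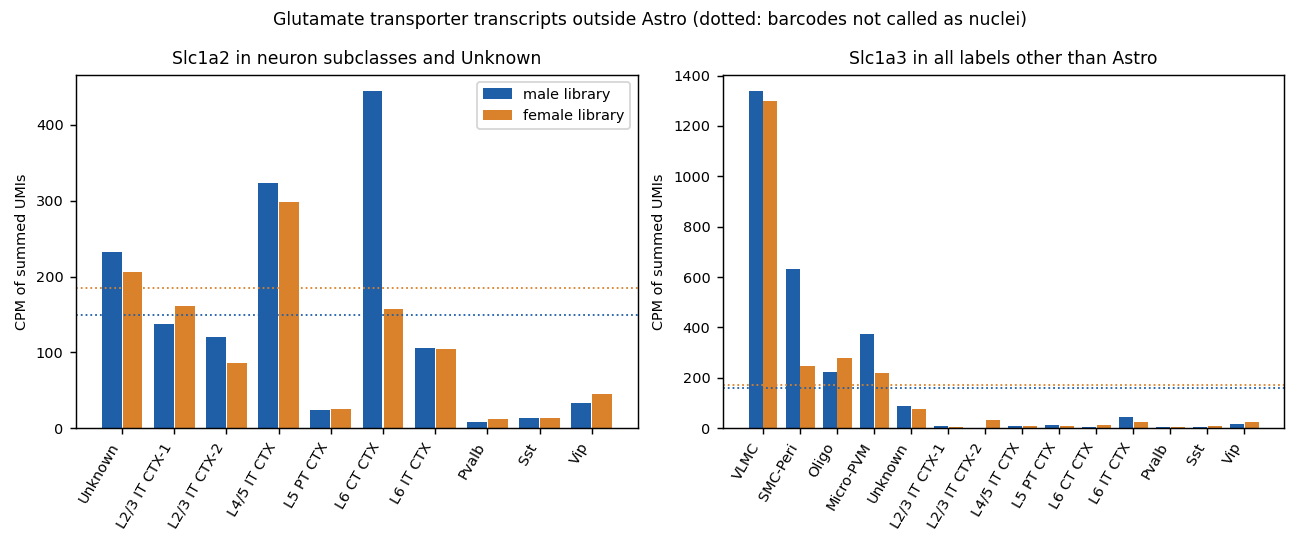
Level of Slc1a2 in the neuron subclasses and Unknown nuclei (left) and of Slc1a3 in all labels other than Astro (right), in CPM of summed UMIs (y axis), with a bar for each library and dotted lines for barcodes not called as nuclei. Slc1a2 is lowest in L5 PT, Pvalb, Sst and Vip neurons, and Slc1a3 is highest in VLMC, at 1338 and 1300 CPM.

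The nuclei labelled Unknown held both transporters. Slc1a2 had 232 and 206 CPM there and Slc1a3 88.3 and 75.7 CPM, while Slc1a3 stayed at 10.4 and 8.15 CPM in excitatory neurons added together. Against excitatory neurons, the values differed on the log2 scale by 1.01 (SE 0.25, adjusted p = 0.00241) for Slc1a2 and 3.03 (SE 0.30, adjusted p = 2.53e-09) for Slc1a3. These were the 2 genes called of 8, against 30.2% of all genes. With excitatory subclasses added together, Slc1a2 had an adjusted p of 0.0502, and Vim, Aldh1l1 and S100b were called as lower in Unknown nuclei. The Slc1a3 level of Unknown nuclei was below the 157 and 170 CPM of barcodes not called as nuclei.

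In microglia, Slc1a3 had the highest level of the 9 genes. It stood at 373 and 218 CPM, against 9.23 and 7.79 CPM in neurons added together. The difference on the log2 scale was 4.74 (SE 0.23, adjusted p = 9.04e-17). It was detected in 32.2% (544 of 1690) and 36.9% (863 of 2338) of microglia, and in 24.7% and 18.3% after thinning. Barcodes not called as nuclei held it at 157 and 170 CPM, and the part of free RNA in the microglia level was not tested. Vim had 7.22 and 12.1 CPM in microglia and 4.03 and 4.26 CPM in neurons (adjusted p = 5.94e-05). Aqp4, with 2.81 and 1.74 CPM against 0.671 and 0.634 CPM, was at the threshold (adjusted p = 0.0493) and was not called by DESeq2 (log2 fold change 1.46), with RLE size factors (2.32) or after free RNA was subtracted (1.48), against 2.36 here. These 3 genes of 8 were called, all higher in microglia, against 59.9% of all genes.

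Some neuron subclasses had no UMI of Vim, Gja1, Gfap, Aqp4, S100b or Aldh1l1 in either library, so fold changes against neurons depend for these genes on the small count that the model adds. For them, fold changes are given from a fit in which all neurons of a library were added together. There, Vim was higher in microglia by 1.17 on the log2 scale (SE 0.44, adjusted p = 0.0339) and Aqp4 was not called (1.49, SE 0.79, adjusted p = 0.125). Aldh1l1 was lower in microglia in this fit (log2 fold change -1.51, SE 0.39, adjusted p = 0.00336), from 6.21 and 8.42 CPM in neurons to 3.61 and 2.36 CPM. Barcodes not called as nuclei held Aldh1l1 at 8.28 and 20.7 CPM and Aqp4 at 6.21 and 21.7 CPM, above microglia and neurons in both libraries. They held Vim at 4.14 and 6.52 CPM, below microglia in both.

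In VLMC, 7 of the 8 genes differed from neurons, against 50.4% of all genes. Slc1a3 was higher by 6.62 on the log2 scale (SE 0.21, adjusted p = 8.22e-20). Gja1 was higher by 6.83 (SE 0.71, adjusted p = 1.14e-06, neurons added together), from 0.839 and 0.725 CPM in neurons to 88.3 and 150 CPM. Vim was higher by 1.95 (SE 0.50, adjusted p = 0.00488, neurons added together). Aqp4, S100b and Aldh1l1 were also called as higher, with 12.3 and 26.9 CPM, 10.3 and 16.9 CPM, and 30.8 and 16.9 CPM in VLMC. Barcodes not called as nuclei held these at 6.21 and 21.7 CPM, 16.6 and 23.9 CPM, and 8.28 and 20.7 CPM, so S100b in VLMC was below them in both libraries. Slc1a2 was lower (43.1 and 34.8 CPM, log2 fold change -1.11, SE 0.34, adjusted p = 0.00758). Gfap, with 1 UMI in each library, was the gene not called. After free RNA was subtracted, Slc1a2 and Aldh1l1 (adjusted p = 0.0630) were no longer called. Their log2 fold changes were then -2.45 and 2.96 in place of -1.11 and 2.13. In the female library the free RNA share of VLMC was estimated at 53.4%, and free RNA held Slc1a2 at 185 CPM. This exceeds the 34.8 CPM of VLMC, so the subtraction could empty its female Slc1a2 sum. The VLMC label had its own markers, with 8 of 8 detected and a sum of 1025 and 1892 CPM, beside 805 and 263 CPM for the 8 endothelial markers, whose part in the calls was not tested. Without nuclei holding 3 or more microglia UMIs, 46 of 113 and 133 of 161, 3 of 6 genes tested were called (Slc1a2, Gja1 and Slc1a3). Vim and S100b were then too low to be tested. Most female nuclei of every neuron subclass were left out as well, and the share of all genes called was not counted.

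In Oligo nuclei, 4 of the 8 genes were called as higher than in neurons, against 23.5% of all genes. Slc1a3 was higher in both libraries (log2 fold change 4.47, SE 0.36, adjusted p = 6.55e-11), and so was S100b (2.97, SE 0.73, adjusted p = 0.00714, neurons added together). S100b rests on 2 UMIs in the male library and 7 UMIs in 3 nuclei of the female. It was too low to be tested without nuclei holding microglia UMIs. Gfap had 0 UMIs in 26 Oligo nuclei of the male library, which allows up to 55.5 CPM at 3 counts, and 19 UMIs in 2 of 42 nuclei of the female (96.6 CPM). Aqp4 had 1 UMI in the male library and 18 UMIs in 3 nuclei of the female. Its adjusted p was 3.41e-06 and that of Gfap 1.04e-06. Yet without nuclei holding microglia UMIs, both had fitted fold changes below 0 and neither was called. That refit left out 10 of 26 and 35 of 42 Oligo nuclei, and most female nuclei of every neuron subclass.

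The genes beside the 9 split by list. The 24 other identity genes had a median level of 247 CPM in Astro, and Gpc5, Slc4a4, Mertk and Sparcl1 were among the 5 with the highest level. Gpc5, a heparan sulphate proteoglycan of the cell surface, had 6138 and 4800 CPM in Astro, with at most 259 and 124 CPM in another label. Slc4a4, a sodium bicarbonate transporter, had 1708 and 1541 CPM, and Sparcl1, a secreted matrix protein, had 811 and 683 CPM. Mertk, a receptor for engulfment of dying cells, was higher in microglia in both.

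Of 34 other reactive astrocyte genes, 6 were highest in Astro in both libraries, 16 had UMIs in Astro of both and 9 had none in either. Their median level was 4.82 CPM, below the 18.6 (male) and 6.55 CPM (female) that 3 counts stand for, so for most of them a level in Astro was not detectable at this depth. The 5 with the highest level were Stat3, Cd44, Osmr, Aspg and Fkbp5. Stat3, a transcription factor of cytokine signalling, had 186 and 183 CPM, with microglia close behind in the male library at 166 CPM. Osmr, the oncostatin M receptor, had 74.3 and 170 CPM. Aspg, an asparaginase, had 105 and 74.2 CPM. Cd44, a receptor for hyaluronan, had 186 and 100 CPM in Astro and was higher in L5 PT neurons, and Fkbp5, a glucocorticoid-induced chaperone, had 24.8 and 105 CPM and was higher in another label in both. The 9 without UMIs were Lcn2, Steap4, Hspb1, H2-T23, Sphk1, Ptgs2, Slc10a6, Cd14 and Thbs1, which are named after their values were seen.

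**Figure D5:**
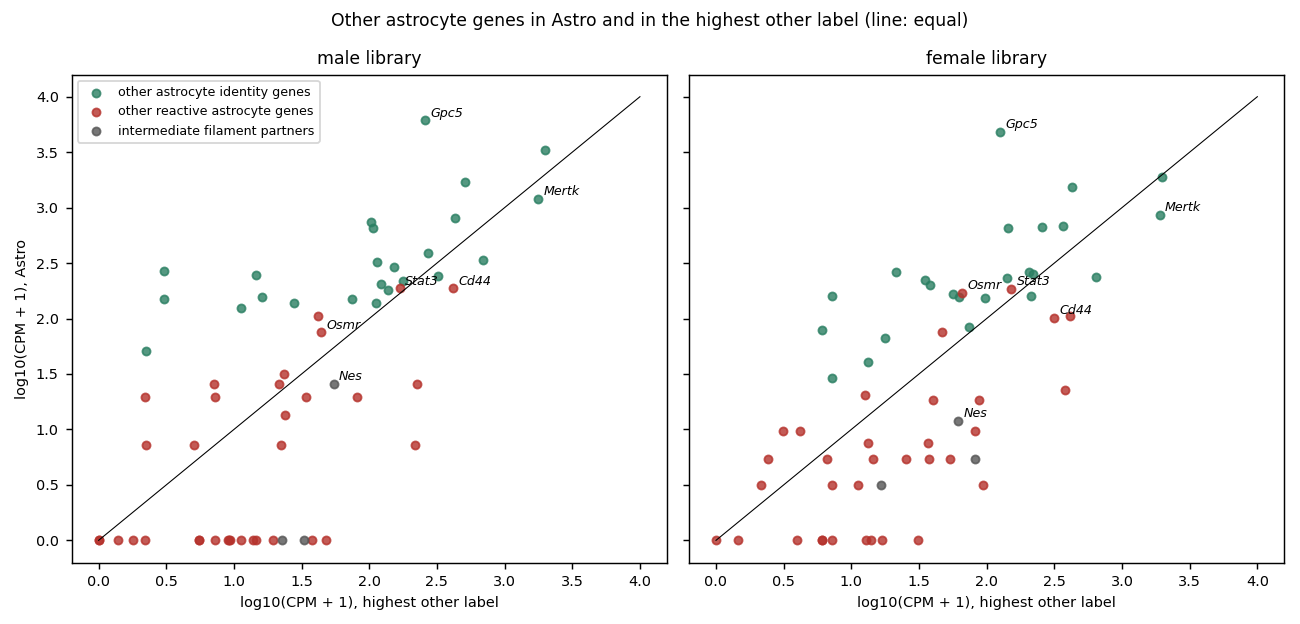
Level in Astro (y axis) against the highest level in any other label (x axis), both as log10 of CPM plus 1, for 24 other identity genes, 34 other reactive genes and 3 filament partners in each library, with a line where both are equal. Most identity genes lie above the line, with Gpc5 at the top, while most reactive genes lie on or below it and many sit at 0 in Astro.

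Outside Astro, both lists had more genes higher than lower in VLMC. Against neurons added together, 14 of the 24 identity genes were higher and 3 lower (median log2 fold change 1.67), and 8 of the 16 reactive genes tested were higher and 1 lower (2.98), beside 2448 higher and 2355 lower of all 11259 genes tested (-0.021). In microglia 5 identity genes were higher and 6 lower, and 6 reactive genes higher and 5 lower, beside 2815 higher and 3121 lower of all genes. With the subclasses kept apart, 7 identity genes were higher and 5 lower, and 6 reactive genes higher and 3 lower, beside 3525 and 2850 of all 10643 genes. Between neurons, Cd44 was higher in L5 PT than in L2/3 IT by 1.49 on the log2 scale (SE 0.24, adjusted p = 9.93e-05) and Stat3 by 0.88 (SE 0.27, adjusted p = 0.0349). The log2 fold change of Nes was -2.60 (SE 0.43, adjusted p = 0.000185). Of all genes, 8.01% were called in this comparison. With the L2/3 IT sums added together, 1 of 16 reactive genes was higher and 1 lower, so Cd44 and Stat3 were not both called as higher there.

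For each of the 9 genes, the genes with the most similar pattern over the 30 sums were found. The likeness is Pearson's r of log2 of CPM plus 1, a description over sums that share libraries and depth. Fgfr3 (r = 0.875) and Dio2 followed Gfap, Rfx4 (0.914) and Myo6 followed Aqp4, and Pbxip1 (0.890) and Wwtr1 followed Vim. Grm3 (0.832) and Mgll were nearest to Slc1a2, and Nfia (0.902) and Notch1 to Slc1a3. Smoc1 (0.909) and Slc7a2 were nearest to Gja1, Hepacam (0.845) and Hif3a to S100b, and Prdx6 (0.819) and Sfxn5 to Aldh1l1. For Serpina3n the best match, Afg1l, had an r of only 0.605 and rests on 20 UMIs.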

How the data were processed

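UMIs per gene and barcode were deposited by the authors as raw counts without normalization, made with Cell Ranger on a mouse (mm10) pre-mRNA reference with the reporter sequence added, so intronic reads are included. The submitters' processing notes name Cell Ranger 3.1.0, Seurat and DESeq2, while the headers of the matrices name other Cell Ranger versions. Labels are those of the deposited table (predicted subclass, and the subclass in the neuron subset), and its total counts per nucleus equal the sums of the matrices in all 8171 nuclei. A further deposited matrix was not used.

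UMIs were summed per library and label, for labels with at least 50 nuclei and 10 in each library. The 573 nuclei with a neuronal label outside the neuron subset entered no comparison. The libraries had 11007366 and 23202343 UMIs in 4044 and 4214 called barcodes, 1 of them shared. Doublets were not called; nuclei with 3 or more UMIs of microglia markers were left out in an alternative. Comparisons used edgeR 4.0.16 (R 4.3.3, limma 3.58.1), TMM factors, filterByExpr by label, glmQLFit and glmQLFTest, in 1 fit of 30 sums (common dispersion 0.0428), tested on simulated data. Alternatives were DESeq2 1.42.0, RLE size factors, no filter, the library as a block, subtraction of free RNA (profile of barcodes with 1 to 100 UMIs), each library alone (0.5 CPM added) and, chosen after seeing the data, neuron subclasses summed. Labels of 1 library share their animals and are paired by it: over 105 pairs of labels the correlation of library differences ran from -0.051 to 0.407, with a median of 0.122. Shares and thinning (seed 1) were computed in Python 3.11.15 with scipy 1.17.1, intervals being exact (Clopper-Pearson, 95%). Positions are from GENCODE vM21 and promoter windows from RefSeq.

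The 9 genes, the lists and the tests were chosen with earlier results of these data known. Beside the 9, the text names the 5 genes with the highest mean Astro level in each list of other astrocyte genes (1 of them is not reported here), all filament partners, the 2 genes most like each of the 9, and Atf3 with the reporter. Cd44, Stat3 and Nes were followed into neurons, and genes at 0 were named, after their values were seen.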

Additional observations from a re-analysis of the deposited data

Results flagged for a closer look

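Gfap in Oligo nuclei against neurons differed in direction between the male and the female library. The log2 ratio of CPM was -0.80 in the male library, where Oligo nuclei had 0 UMIs, and 6.48 in the female library, where 2 of 42 nuclei held 19 UMIs. The difference between the libraries was not tested, since each holds 1 sum of Oligo nuclei. The male sum of 26 nuclei would show nothing below 55.5 CPM at 3 counts, and the female level was 96.6 CPM.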

How the results depend on the processing

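Of the 18 called changes of single genes, 10 were called in each refit in which they could be tested: Slc1a3 in 4 comparisons, Slc1a2 between L5 PT and L2/3 IT, Vim in 2, Gja1 in VLMC and S100b in 2. With the library as a replicate block no call changed. With neuron subclasses summed, called genes numbered 2 (L5 PT against L2/3 IT), 3 (inhibitory against excitatory) and 4 (Unknown against excitatory), beside 6.93%, 7.86% and 23.3% of all genes in those fits. With free RNA subtracted the count between inhibitory and excitatory neurons was 0, where the subtraction could empty the Slc1a2 sums of Pvalb and Sst. With no filter the count in microglia was 5 of 9. Without nuclei with microglia UMIs 6 of the 9 genes could be tested, and the count was 1 in Unknown, 1 in Oligo and 3 in VLMC. The log2 fold changes reversed to -0.86 for Gfap in Oligo and to -0.88 for Aqp4 in Oligo and in VLMC. This refit also left out most female neuron nuclei, with 268 of 290 in L5 PT and 135 of 150 in Pvalb. The share of all genes called was not counted with free RNA subtracted, with no filter or without these nuclei. With each library alone, Gfap in Oligo ranged from -0.80 to 6.48. The cause of these changes was not tested.

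The 7 genes highest in Astro became 6 to 8 under the alternatives. The median ratio of Astro to the next label was 4.17 with free RNA subtracted, 4.06 without nuclei with microglia UMIs (19 of 53 and 55 of 62 Astro nuclei left out, with the female Slc1a3 share at 71.4% and that of S100b at 14.3%), 3.42 with Astro nuclei of the Astro cluster only and 2.59 after thinning. The median share of Astro nuclei with a UMI was 52.3%, 22.2% after thinning to 1000 UMIs and 9.83% at 500 UMIs, as fewer UMIs were read. The median level in barcodes not called as nuclei was 14.5 CPM, and 0 CPM among the few barcodes with 10 to 50 UMIs.

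Endo against neurons was not run, with 5 Endo nuclei, and the count of called genes has no value with 1 library, where each label has 1 sum. In the male library, 3 counts in Astro stand for 18.6 CPM, so low genes were not detectable there.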
